A study of Mus musculus with 4 samples.

Results

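The odorant receptor genes examined here form a cluster on mouse chromosome 19. They were taken by symbol alone, as every gene named Olfr whose number falls in the range from Olfr1418 to Olfr1505, without use of any measured value. The count tables held 58 such genes among 1100 odorant receptor genes and 23337 gene symbols in all. GENCODE M21 places 57 of them on chromosome 19 of mm10, between positions 11852587 and 13921866, and the label of the cluster therefore holds for all but Olfr1433, which has no entry there. RefSeq gives that symbol as another name of Olfr1434, which also has a row of its own, so the identity of Olfr1433 is uncertain.

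Transcripts were sequenced from Tomato-fluorescent cells, sorted out of olfactory epithelium after its regeneration, 1 mouse per sample, with 2 Lmnb1+/- control samples and 2 Lmnb1-/- mutant samples. The mice were of mixed background, with the K5Cre and floxed Lmnb1 lines backcrossed to B6. At 2 to 3 months of age they were given 2 injections of 50 mg/kg methimazole, a drug that destroys the epithelium, and their tissue recovered for 4 weeks. All 4 carried K5Cre, a Cre recombinase driven by the cytokeratin 5 promoter, and a Cre-dependent Tomato reporter; controls had 1 floxed Lmnb1 allele and mutants 2. Each mutant was matched to a littermate control, and samples that carry the same number here (control 1 and mutant 1, for example) were littermates of the same experimental group. The 2 mice of a group also shared sex, age, treatment, library preparation and sequencing. Litter and batch therefore cannot be told apart. Cre acts in the horizontal basal cells, the resident stem cells, so the sorted cells hold all their descendants, including neurons, supporting cells and progenitors, and a gene's level reflects both how many cells of a type were sorted and how much RNA each held, which cannot be told apart in such bulk samples.

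Odorant receptors are seven-transmembrane proteins that couple to an olfactory G protein in the cilia of olfactory sensory neurons. Each mature neuron expresses a single allele of a single receptor gene, chosen from genes that lie in clusters on most chromosomes, and the silent copies are held in heterochromatin. The level of any given receptor in a tissue therefore largely follows the number of neurons that chose it. Within this cluster Olfr1440, also known as MOR215-1, is a well characterised member and responds to muscone, the main odorant of musk.

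The placed members were typical receptor genes, with 33 on the plus strand and 24 on the minus strand, and with a single coding exon in 56 of 57. Their coding lengths ran from 921 to 1077 bp. The median coding identity over 1596 pairs was 60.3%, and the extremes were 53.2% and 97.5%. Identity was at least 80% in 57 pairs and at least 90% in 20. The members fell on either side of a gap of 246.9 kb between Olfr1441 and Olfr1442, against a median gap of 16.7 kb, so that 15 members lay before the gap and 42 after it.

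How alike neighbours are decides whether a read can be assigned to 1 of them, because the authors' counting program sets aside reads that align to several places. The windows that follow show 60 coding bases around the conserved end of the third transmembrane segment, from GENCODE M21 transcripts, for Olfr1427 and 5 neighbours on the minus strand, with each base that differs from Olfr1427 in capitals. Olfr1427 is shown because it is the only member past the test threshold, and the others because they lie near it.
Olfr1427: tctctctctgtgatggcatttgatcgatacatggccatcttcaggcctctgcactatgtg
Olfr1423: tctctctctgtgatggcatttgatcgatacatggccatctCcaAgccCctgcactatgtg
Olfr1424: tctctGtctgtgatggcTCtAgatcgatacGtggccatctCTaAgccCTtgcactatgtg
Olfr1425: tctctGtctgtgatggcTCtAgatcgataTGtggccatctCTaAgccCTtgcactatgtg
Olfr1426: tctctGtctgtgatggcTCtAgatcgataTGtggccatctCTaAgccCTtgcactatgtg
Olfr1428: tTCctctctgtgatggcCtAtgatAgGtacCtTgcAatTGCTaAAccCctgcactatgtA
The Olfr1427 window lies at chr19:12099239-12099298 and differed from the other windows at 3 (Olfr1423, chr19:12036342-12036401), 10 (Olfr1424, chr19:12059352-12059411), 11 (Olfr1425, chr19:12074238-12074297), 11 (Olfr1426, chr19:12088398-12088457) and 17 bases (Olfr1428, chr19:12109146-12109205). The windows of Olfr1425 and Olfr1426 were the same. Over the coding sequence, 2.60% of the 50-base words of Olfr1427 were also found in other receptor genes, against 55.0% for Olfr1426, 68.0% for Olfr1425 and none for Olfr1428. Within the coding sequence, Olfr1427 and Olfr1428 are thus less exposed to reads with several alignments than Olfr1425 and Olfr1426. Only exact words of the coding sequence were sought. The noncoding parts of exons, and matches that allow mismatches, were not covered.

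A second set of near copies lies in the other section of the cluster, on the plus strand, and is shown because its tested member Olfr1477 had counts of 0 in mutant 2 alone. Capitals mark bases that differ from Olfr1477.
Olfr1477: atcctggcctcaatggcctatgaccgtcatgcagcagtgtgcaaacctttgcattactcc
Olfr1480: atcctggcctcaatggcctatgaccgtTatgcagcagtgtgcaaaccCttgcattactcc
Olfr1484: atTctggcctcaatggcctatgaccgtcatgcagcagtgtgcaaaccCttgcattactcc
Olfr1487: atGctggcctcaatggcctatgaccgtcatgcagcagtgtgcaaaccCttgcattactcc
These windows lie at chr19:13502681-13502740, chr19:13530011-13530070, chr19:13585642-13585701 and chr19:13619500-13619559 and differ from Olfr1477 at 2 bases each. Between 27.4% and 47.4% of the 50-base coding words of these 4 genes occurred in another receptor gene, so the values of each of them are uncertain. Of the 57 placed members, 42 shared at least 1 such word with another gene and 15 shared none.

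Reads assigned to genes numbered 14833396 to 23704638 per sample. Mutant 1 stood apart, with 39.4% of its uniquely aligned reads outside genes against 22.1% to 24.9% in the other samples, and with 1603 genes at 0 against 5173 to 6053. Spread evenly over the genome, its excess amounts to 2.72 counts per kb, and values after its subtraction, a fit in which 20 members were tested and not 22, are given for the main results. The amount subtracted from a gene follows its GENCODE M21 exon length, which may differ from the exons that were counted. The targeted gene Lmnb1 had counts of 477 and 395 in the controls and 326 and 149 in the mutants. Its log2 fold change was -0.72 (SE 0.31, adjusted p = 0.195 by edgeR's likelihood-ratio test), a fall that did not pass the threshold. The study reports, from PCR outside the removed exon, that the transcript was depleted in sorted mutant cells. Such a depletion was not called in the counts over the whole gene. Only exon 2 is removed, and these counts do not separate it, so the deletion itself was not tested. Across all 15438 tested genes, 664 were lower and 197 higher in mutants.

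Summed over the cluster, receptor RNA was lower in the mutant than in the littermate control in both experimental groups, by a small amount in 1 and by a large amount in the other. The 58 members added up to 89.1 and 97.0 CPM (counts scaled to the library's gene total) in controls 1 and 2, and to 73.2 and 33.3 CPM in mutants 1 and 2. Both mutants lay below both controls, and mutant 2 was the lowest of the 4. The log2 ratio of mutant to control was -0.28 in experimental group 1 (95% counting interval -0.38 to -0.19) and -1.54 in experimental group 2 (-1.68 to -1.40). After background subtraction mutant 1 had 54.9 CPM and a log2 ratio of -0.70. These intervals cover counting error only. With 2 samples per genotype an exact permutation test cannot go below a two-sided p of 0.333, so no p is given for the sums.

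**Figure D1:**
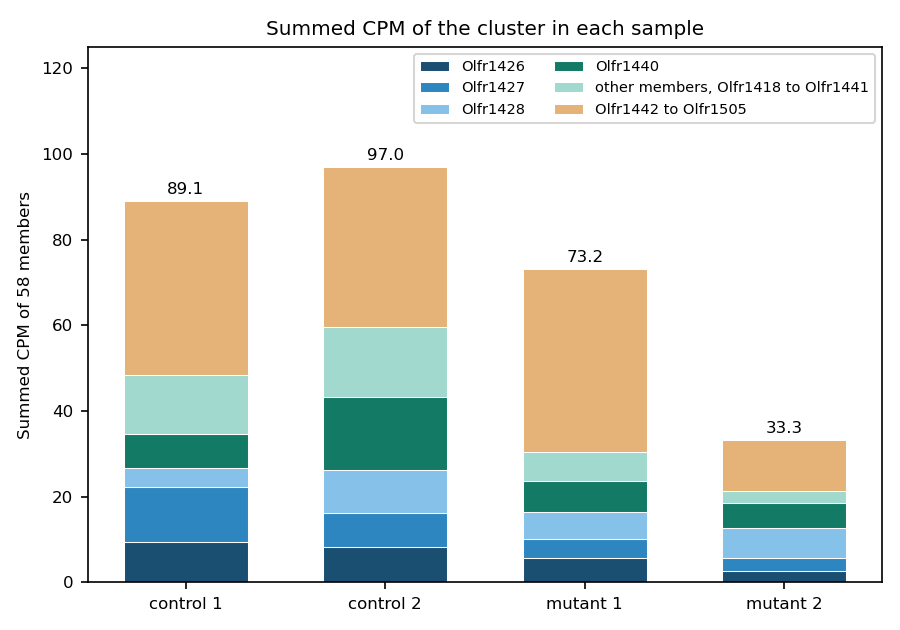
Summed CPM of the 58 members in each sample, with bars from 0 divided into 4 highly expressed members, the other members from Olfr1418 to Olfr1441 and the members from Olfr1442 to Olfr1505. The totals are 89.1 and 97.0 in the controls and 73.2 and 33.3 in the mutants, and the top section, Olfr1442 to Olfr1505, is about as tall in mutant 1 as in control 1.

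A handful of members carried much of this signal. The 5 members with the most counts held 45.1% and 51.1% of the cluster's counts in controls 1 and 2, and 36.5% and 61.9% in mutants 1 and 2. Olfr1426, Olfr1427 and Olfr1440 were among these 5 in each sample, and Olfr1428 in every sample but control 1. Only 5 members exceeded 1 CPM in all 4 samples, and these were the same 4 genes and Olfr1463. Members above 1 CPM numbered 23 and 22 in the controls, 21 in mutant 1 and 6 in mutant 2.

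Per kilobase of coding length, Olfr1440 had the highest mean level over the 4 samples, 10.1 CPM per kb, followed by Olfr1427 with 7.68, Olfr1428 with 7.30 and Olfr1426 with 6.94. The ranges of these 4 overlapped, so their order is not separated from the spread between samples. The next members, Olfr1420 and Olfr1463, had mean levels of 2.89 and 2.88 CPM per kb. Per kilobase of GENCODE M21 exon, which includes noncoding parts, the order of the first 4 was different. Olfr1428 then had 3.228 CPM per kb, Olfr1427 had 2.145, Olfr1426 had 1.931 and Olfr1440 had 1.256. Their order therefore also depends on the length used.

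**Figure D2:**
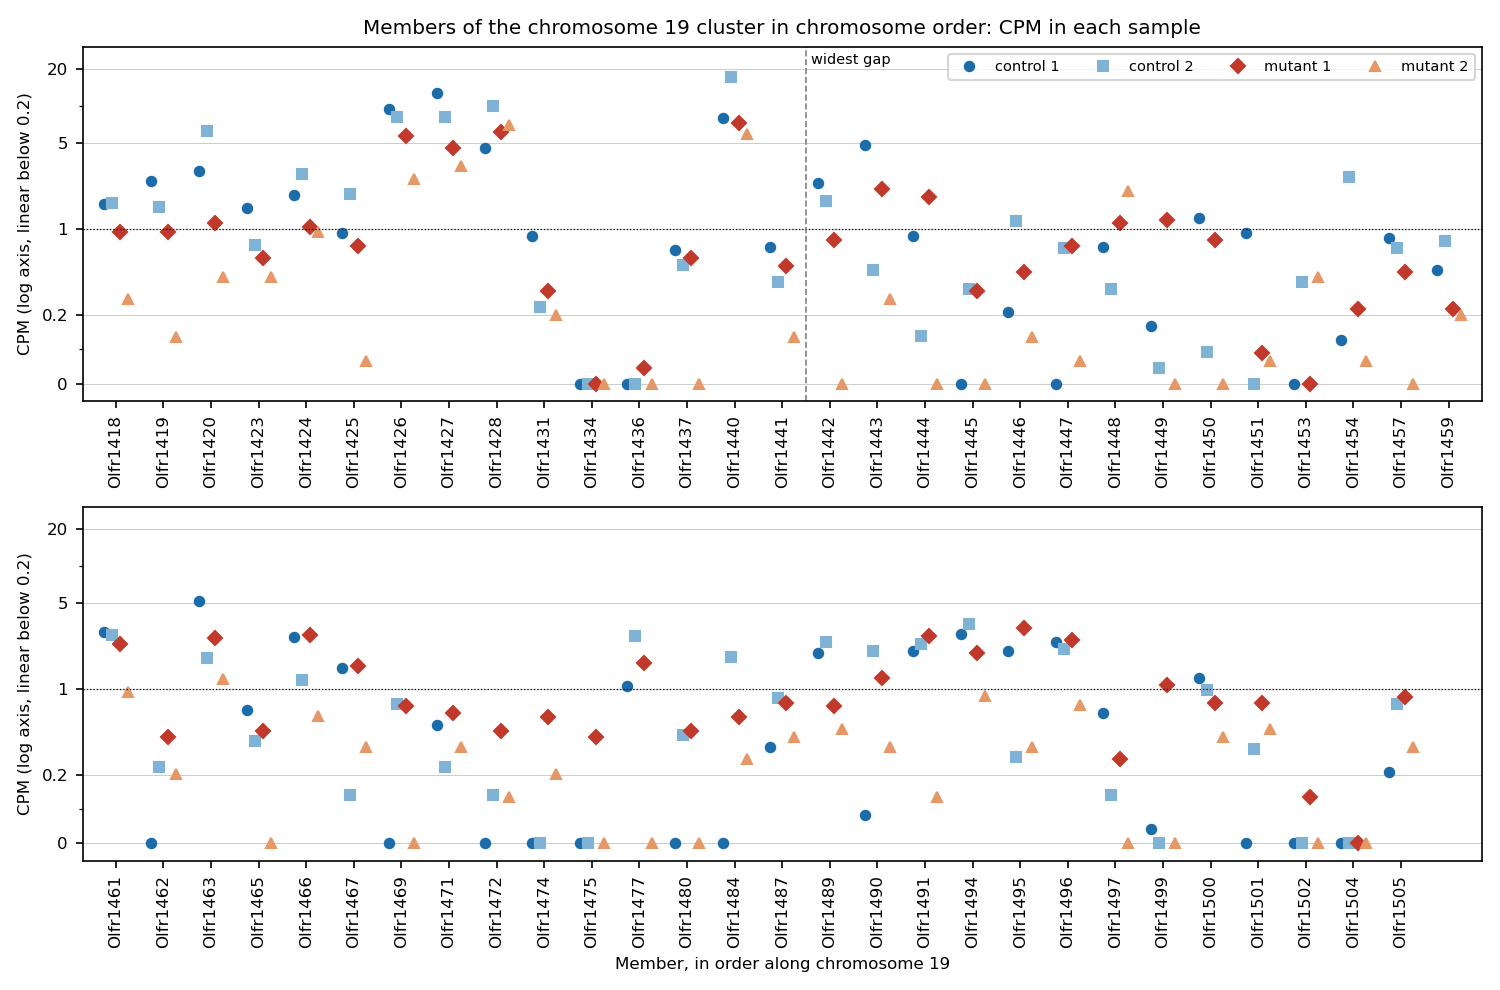
CPM of the 57 placed members in each of the 4 samples, in chromosome order, on a log axis that is linear below 0.2, with the dashed line at the widest gap and the dotted line at 1 CPM. Olfr1426, Olfr1427, Olfr1428 and Olfr1440 stand above the rest, and the mutant 2 points are lowest for most members.

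Of the 58 members, 22 exceeded 1 CPM in at least 2 samples and were tested. Only Olfr1427 passed the threshold, and it was lower in mutants. That is 1 of 22, or 4.55%, against a background of 4.30% of all tested genes called lower. No member was called higher by edgeR's likelihood-ratio test, against 1.28% of all tested genes. Unadjusted p was under 0.05 and the change negative in 5 of the 22 by this test, against 9.62% of all tested genes, in 3 by edgeR's quasi-likelihood test, against 10.5%, and in 4 by DESeq2, against 7.65%. DESeq2 gave no adjusted p for any of the 22. By none of the 3 tools was an unadjusted p under 0.05 found for a positive change. The share past the adjusted threshold is thus near the background, and those calls do not set the cluster apart. At an unadjusted p under 0.05 the share was above that of all tested genes by the likelihood-ratio test and DESeq2. By the quasi-likelihood test, with 3 of 22, it was close to that of all tested genes. These differences were not tested. Among the 467 tested receptors outside the cluster the shares were above those of all tested genes by each tool. There 99, 85 and 80 were lower by the likelihood-ratio test, the quasi-likelihood test and DESeq2.

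Olfr1427 had counts of 303 and 174 in controls 1 and 2, and of 100 and 48 in mutants 1 and 2. These correspond to 12.8, 8.14, 4.52 and 3.24 CPM, and both mutants lay below both controls. The log2 fold change was -1.47 (SE 0.47, n = 2 per genotype, adjusted p = 0.0383 by edgeR's likelihood-ratio test), with log2 ratios within the groups of -1.57 and -1.32. The fall was close to the same size in both groups, unlike that of the summed cluster. The call was lost by edgeR's quasi-likelihood test (adjusted p = 0.091), without the replicate block (adjusted p = 1.0), and on leaving out any 1 of the 4 samples, where the log2 fold change ranged from -1.74 to -1.11.

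Olfr1420, nearer the start of the cluster, lay just outside the threshold, with counts of 70 and 133 in the controls and 25 and 6 in the mutants. The groups did not overlap, and the log2 fold change was -2.62 (SE 0.82, adjusted p = 0.0543 by edgeR's likelihood-ratio test). No 50-base word of the coding sequence of Olfr1420 occurred in another receptor gene, and the rest of its exons was not searched. With background subtracted from mutant 1 its adjusted p was 0.0273, and with libraries thinned to equal depth it was 0.0394 while that of Olfr1427 was 0.0567. It did not pass by the quasi-likelihood test (adjusted p = 0.164), with RLE factors (0.0571), with no filter (0.101), with no replicate block (1.0) or on leaving out a sample (0.205 to 1.0), all fits of edgeR.

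The muscone receptor Olfr1440 had 8.02 and 17.1 CPM in controls 1 and 2, and 7.22 and 5.87 CPM in mutants 1 and 2. Mutants were again below controls, but mutant 1 was close to control 1, and the log2 fold change of -0.90 (SE 0.45) did not pass (adjusted p = 0.315, edgeR likelihood-ratio test). Olfr1426 had 9.45 and 8.18 CPM in controls and 5.69 and 2.56 in mutants, with a log2 fold change of -1.24 (SE 0.50) and an adjusted p of 0.161 by the same edgeR test. Here too the groups did not overlap. When the near copies Olfr1424, Olfr1425 and Olfr1426 were added together, counts were 291, 276, 165 and 53, and the log2 ratios were -0.72 and -1.85.

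Olfr1428, the neighbour of Olfr1427, behaved differently. Its counts were 107 and 212 in controls 1 and 2, and 136 and 103 in mutants 1 and 2. The groups overlapped, the log2 fold change was -0.09 (SE 0.49), and the adjusted p was 0.974 by edgeR's likelihood-ratio test. It held the most counts of any member in mutant 2, where Olfr1427 had 48. Whether the response of Olfr1428 differs from that of Olfr1427 was not tested.

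The other members named for their expression did not pass either. Olfr1463 had counts of 122, 38, 57 and 18 (controls 1 and 2, then mutants 1 and 2), Olfr1461 had 68, 59, 51 and 14, Olfr1494 had 66, 72, 43 and 13, Olfr1496 had 57, 45, 55 and 11, and Olfr1443 had 113, 10, 47 and 4. Their log2 fold changes ran from -1.26 for Olfr1494 to -0.74 for Olfr1496. Mutant 2 was the lowest sample for all 5, whereas mutants lay below both controls only for Olfr1461 and Olfr1494.

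Besides Olfr1420, the 4 other members with the most negative fitted changes were Olfr1442, Olfr1477, Olfr1419 and Olfr1489. Olfr1442 had counts of 56 and 36 in controls and 18 and 0 in mutants, Olfr1419 had 58, 32, 21 and 2, and Olfr1489 had 46, 51, 16 and 7. Both mutants were below both controls for these 3 genes, yet adjusted p was 0.183, 0.304 and 0.362 by edgeR's likelihood-ratio test, with an SE of 1.01 or more on the log2 scale. With background subtracted, the counts of Olfr1442 and Olfr1489 in mutant 1 were 8 and 0, and their log2 fold changes were -4.01 and -4.07, with adjusted p of 0.0852 and 0.092 in that edgeR fit. Olfr1489 has the longest annotated exons of the members, 11280 bp, so its values after subtraction depend on that length. In mutant 2, where a floor of 3 counts is 0.202 CPM, Olfr1442 was at least 8.32-fold lower than in control 2. Olfr1477, with counts of 25, 57, 36 and 0, was at least 13.2-fold lower in mutant 2 than in control 2 but not lower in mutant 1 than in control 1. The fitted changes of Olfr1442 and Olfr1477, -3.25 and -2.36, depend on how the 0 is treated.

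The members with the most positive changes were no more certain. Olfr1448 had counts of 17 and 7 in controls and 25 and 30 in mutants. On the counts as deposited it was the only tested member with both mutants above both controls. After background subtraction mutant 1 had 13 counts, or 0.594 CPM, below the 0.717 CPM of control 1, and the gene no longer reached the level for testing. The log2 fold change of 1.55 (SE 1.17) as deposited had an adjusted p of 0.632 by edgeR's likelihood-ratio test. With its near copy Olfr1445 added, counts were 17, 14, 32 and 30. Olfr1467, Olfr1490 and Olfr1495 had log2 fold changes of 0.50, 0.41 and 0.41, with adjusted p of 0.93 or more in the same edgeR fit.

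The tested members as a whole leaned towards lower values. Log2 fold changes ran from -3.25 to 1.55, and 18 of 22 were negative. The median was -1.16, against -0.96 over the 489 tested odorant receptors and -0.01 over all tested genes. Within experimental group 1 the median ratio of the members was -0.49 and within experimental group 2 it was -1.52, against -0.47 and -1.28 for all tested receptors. The ratio was below 0 in both groups for 15 of the 22 members, or 68.2%, against 58.7% of tested receptors and 32.8% of all tested genes. In 17 of 22 the ratio was lower in experimental group 2.

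**Figure D3:**
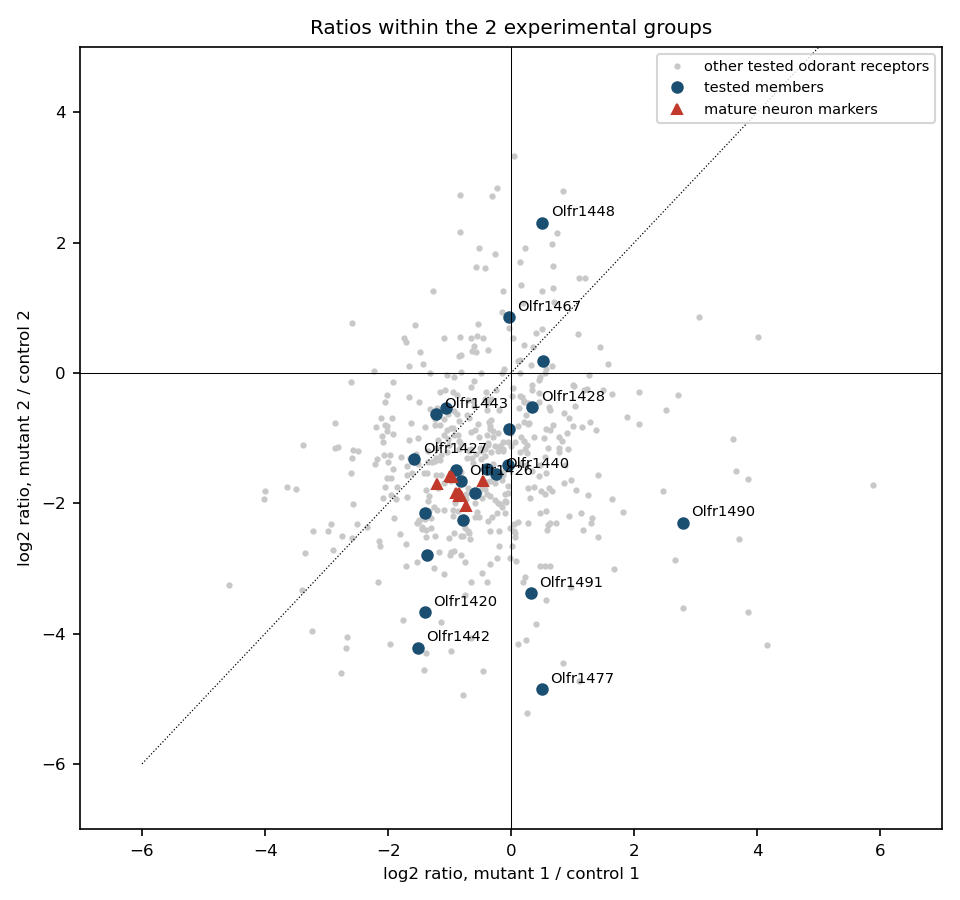
Log2 ratio of mutant to control in experimental group 1 against that in experimental group 2, for the 22 tested members, the other tested odorant receptors and 9 markers of mature neurons. Most members lie below 0 on both axes and below the dotted line of equal ratios, while Olfr1448 lies above 0 on both and Olfr1477, Olfr1490 and Olfr1491 lie to the right of 0 but far below it on the vertical axis.

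Over all 58 members, tested or not, both mutants were below both controls in CPM for 16, or 27.6%. The same was true of 7.81% of all genes in the files and 23.1% of all odorant receptors. Both mutants were above both controls for 3 members, Olfr1448, Olfr1474 and Olfr1501, or 5.17%, against 14.8% of all genes and 7.64% of all odorant receptors. Olfr1474 and Olfr1501 had counts of 17 or fewer in every sample. After background subtraction in mutant 1, the members below numbered 23, against 9.40% of all genes and 31.2% of all odorant receptors so treated, and 1 was above, against 12.4% and 4.00%.

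Samples of the same experimental group resembled each other for some members more than samples of the same genotype did. Olfr1443 had counts of 113 in control 1 and 47 in mutant 1 but 10 in control 2 and 4 in mutant 2. Olfr1495 had 48 and 69 in experimental group 1 against 6 and 5 in experimental group 2. Olfr1467 had 35 and 34 against 3 and 5. For these genes both samples of experimental group 1 were above both of experimental group 2, and the controls differed from each other by 3.12, 2.50 and 2.74 on the log2 CPM scale, more than either littermate pair did.

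Olfr1490 showed no such resemblance. Its counts were 2 and 43 in controls 1 and 2, and 27 and 5 in mutants 1 and 2, so that 1 sample of each genotype was high. The median absolute log2 difference over the 22 members was 0.69 between control 1 and mutant 1, 1.60 between control 2 and mutant 2, 0.82 between the controls and 1.34 between the mutants. The difference within experimental group 1 was thus smaller than the difference between the controls. Whether the mixed background or the independent regeneration of each mouse bears on these levels was not tested. An experimental group is a litter and also a batch of preparation and sequencing, which cannot be told apart. Alignments that were not unique numbered 67710764 and 62182762 in control 1 and mutant 1, and 10308536 and 6757456 in control 2 and mutant 2.

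More members were seen in mutant 1 than in any other sample. At least 1 count was found for 42 and 50 members in controls 1 and 2, and for 55 and 40 in mutants 1 and 2. At least 10 counts were found for 35, 32, 44 and 10. The samples are thus not ordered by genotype at the lower limit, but at 10 counts mutant 2 was far below the rest. After thinning to equal depth the numbers with at least 1 count were 41, 50, 54 and 40. After background subtraction mutant 1 had 46, between the 2 controls.

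Detected in all 4 samples were 31 members, and Olfr1434 and Olfr1504 had no count in any. For reads that could be assigned, this allows up to 0.127 CPM in control 1, the deepest library, and 0.202 CPM in mutant 2, the shallowest. Of their 50-base coding words, 20.07% and 7.03% occurred in other genes, and reads with several alignments were set aside. Olfr1433, which may be the same gene as Olfr1434, had counts of 0 and 6 in controls 1 and 2, and 3 and 2 in mutants 1 and 2. Mutant 1 alone had counts for Olfr1436, Olfr1475 and Olfr1502. Mutant 2 alone lacked 9 members, Olfr1442 and Olfr1477 among them, control 1 alone lacked 6, and control 2 alone lacked 1.

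**Figure D4:**
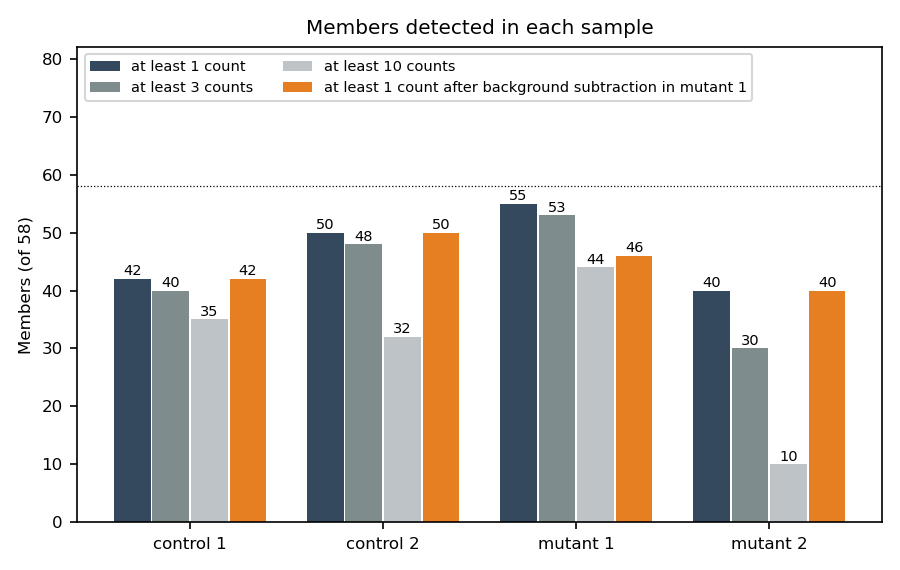
Number of the 58 members with at least 1, 3 or 10 counts in each sample, and with at least 1 count after background subtraction in mutant 1. Mutant 1 has the most members by each limit on the counts as deposited, 55, 53 and 44, and mutant 2 the fewest, 40, 30 and 10.

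The sections on either side of the widest gap differed in experimental group 1. The 15 members before the gap, Olfr1418 to Olfr1441, added up to 48.3 and 59.3 CPM in controls and 30.4 and 21.2 in mutants. The 42 members after it added up to 40.8 and 37.5 in controls and 42.7 and 12.0 in mutants. The log2 ratios were -0.67 and -1.49 before the gap and 0.06 and -1.64 after it, so that the second section was not lower in mutant 1. With background subtracted, the ratios in experimental group 1 were -0.94 and -0.47. All 8 tested members before the gap had a negative log2 fold change (median -1.37), as did 10 of 14 after it (median -0.90), and the difference between the sections was not tested.

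The genes interspersed with the receptors were also counted. Between the first and last member lie 14 genes of the files that are not odorant receptors, of which 9 were tested and 0 passed by edgeR's likelihood-ratio test, with 0 at an unadjusted p under 0.05 by this test, 1 by the quasi-likelihood test and 0 by DESeq2. Their log2 fold changes ran from -1.16 to 0.55, with a median of -0.22. The smallest adjusted p among them was 0.389, for the zinc finger gene Zfp91. The receptors of chromosome 19 outside the number range, Olfr76, Olfr235 and Olfr1417, had log2 fold changes of -1.52, -1.72 and -3.09, with adjusted p of 0.388, 0.219 and 0.137 in the same edgeR fit. The fourth, Olfr262, was not tested and had 12 counts in mutant 1 and 0 in the other samples. Olfr1417 shares words with Olfr1418, 59.2% of whose 50-base coding words occurred elsewhere.

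The cluster's place among all odorant receptors varied between samples. Its members took 3.94% of odorant receptor counts in control 1 (95% Wilson interval 3.78 to 4.11), 5.63% in control 2 (5.40 to 5.87), 3.46% in mutant 1 (3.30 to 3.63) and 4.76% in mutant 2 (4.37 to 5.19). The share was lower in the mutant of each littermate pair, but the controls differed from each other by more than either pair. In experimental group 1 the receptor total fell from 53603 to 46796 counts, while the receptors of chromosome 7 rose from 15271 to 20000. The share in that group thus depended on chromosome 7. Of the 467 tested receptors outside the cluster, 33 were called lower, or 7.07%, and 0 higher by edgeR's likelihood-ratio test, with 99 lower and 0 higher at an unadjusted p under 0.05. The quasi-likelihood test called 9 of them lower and 0 higher.

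Set beside receptors elsewhere, the cluster's summed ratio was low in experimental group 2, but in experimental group 1 its place was less clear. Receptors outside the cluster had log2 ratios of -0.09 and -1.29, against -0.28 and -1.54 for the members. Receptors of chromosome 2 had -0.43 and -1.37, those of chromosome 9 had -0.03 and -1.19, those of chromosome 10 had 0.04 and -1.27, and those of chromosome 7 had 0.49 and -1.07. Chromosome 7 held 15271 of the 51490 counts outside the cluster in control 1, and 20000 of 45175 in mutant 1. Yet the median ratio of its tested receptors in experimental group 1 was -0.32. In that group the medians were -0.49 for the members and -0.47 for all tested receptors. The members had the lowest of these ratios in experimental group 2, with a counting interval that overlapped those of chromosomes 2 and 10, and the second lowest in experimental group 1. With 1 littermate pair per ratio, the differences between chromosomes were not tested.

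**Figure D5:**
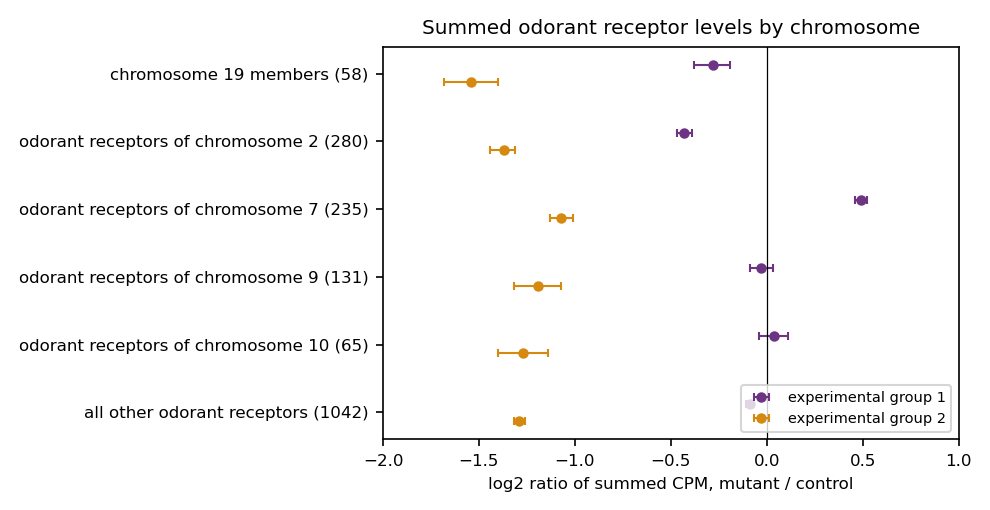
Log2 ratio of summed CPM, mutant to control, in each experimental group for the members and for odorant receptors of other chromosomes, with the number of genes in brackets and bars of 95% counting intervals. In experimental group 2 the ratios lie between -1.54 and -1.07, and in experimental group 1 between -0.43 and 0.49, with the members at -1.54 and -0.28.

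The genes that serve the receptors were taken as 3 lists. Of 4 receptor trafficking genes, all 4 fell, with a median log2 fold change of -1.09. They include Rtp1 and Rtp2, which carry receptors to the cell surface (log2 fold changes of -1.10 and -1.08, adjusted p = 0.00174 and 0.00342 by edgeR's likelihood-ratio test). The others were Reep1, with -0.84, and Ric8b, a helper of the olfactory G protein, with -1.16.

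Of 10 signalling genes, 9 were called lower by edgeR's likelihood-ratio test, and the median log2 fold change of the list was -1.32. Gnb1 did not pass that test (log2 fold change -0.77, adjusted p = 0.0857), though both mutants were below both controls. Gnal, the G protein subunit that receptors activate, had 1300 and 1050 CPM in controls and 791 and 286 in mutants. Its log2 fold change was -1.35, and that of Omp, the olfactory marker protein, was also -1.35 (adjusted p = 0.00176 and 0.00714 by edgeR's likelihood-ratio test). The channel subunits Cnga2, Cnga4 and Cngb1 had log2 fold changes of -1.29, -1.51 and -1.37, and the chloride channel Ano2 had -1.37. Gng13, Slc24a4 and Pde1c fell by 0.97, 0.73 and 1.10 on the log2 scale. By the quasi-likelihood test all 10 passed, with an adjusted p of 0.0133 for Gnb1. By DESeq2 Gnb1 also passed (adjusted p = 4.47e-07), whereas Gnal, Cnga4, Ano2, Omp and Slc24a4 did not (adjusted p = 0.0542 to 0.108).

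Of 18 genes of receptor choice and expression, 4 were called lower and 0 higher by edgeR's likelihood-ratio test, with 8 lower and 0 higher at an unadjusted p under 0.05 and 3 called lower by the quasi-likelihood test. The 4 were Adcy3, the adenylyl cyclase that also stabilises receptor choice (-1.29), the transcription factor Ebf4 (-0.89), and Ddit3 and Eif2ak3 of the unfolded protein response (-0.67 and -0.59). Eif2ak3 and Ddit3 did not pass the quasi-likelihood test (adjusted p = 0.0792 and 0.088), while Atf5, a factor of the same response with a log2 fold change of -0.77, passed it (0.0184) but not edgeR's likelihood-ratio test (0.0602). Lhx2 and Ldb1, which bind receptor enhancers, had log2 fold changes of -0.28 and 0.16 with adjusted p of 0.553 and 0.777 in the same edgeR fit. The list's median was -0.33, against -0.01 over all tested genes.

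Markers of mature neurons moved with the members. All 9 of these markers, some of them in the signalling list too, were called lower by edgeR's likelihood-ratio test. By DESeq2 Omp, Gnal, Stoml3 and Ano2 did not pass (adjusted p = 0.0674 to 0.204). The summed level of the 9 was 17700 and 7690 CPM in controls 1 and 2, and 10100 and 2230 CPM in mutants 1 and 2. Control 2 was thus below mutant 1 for these markers, whereas for the cluster both controls were above both mutants. For each 1000 CPM of these markers the members had 5.03 and 12.6 CPM in controls 1 and 2, and 7.23 and 14.9 CPM in mutants 1 and 2. In each littermate pair this relative level was higher in the mutant, and the controls differed by more than either pair. The log2 ratios of the summed markers were -0.81 and -1.78, against -0.28 and -1.54 for the members.

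By edgeR's likelihood-ratio test the lists for other cell types had fewer calls. Immature neuron markers had 1 of 8 called lower and a median log2 fold change of -0.30, and their summed level was 2660 and 2100 CPM in controls and 2220 and 1690 in mutants. Globose basal cell markers had 3 of 6 called higher, with 95.3 and 154 CPM in controls and 185 and 297 in mutants. Of 5 horizontal basal markers 1, Krt15, was called higher by the same test. By DESeq2 Krt15, Krt5, Krt14 and Trp63 were all called higher (adjusted p of 0.0122 or less), and Icam1 was not (0.693). Of 5 sustentacular markers 0 were called by edgeR's likelihood-ratio test (1 at an unadjusted p under 0.05). The quasi-likelihood test called 1 of them higher, and DESeq2 called 2. Summed levels of the sustentacular markers were 4950 and 9220 CPM in controls and 6950 and 12600 in mutants. No leukocyte, erythroid, ensheathing glia or endothelial marker passed by edgeR's likelihood-ratio test (1 of 14 tested had an unadjusted p under 0.05), and their summed levels overlapped between genotypes, with leukocyte markers at 515 and 768 CPM in controls and 318 and 793 in mutants. Within experimental groups 1 and 2 the median log2 ratios were -1.67 and 1.03 for leukocyte markers and -1.62 and 0.25 for ensheathing glia markers, against -0.85 and -1.84 for mature neuron markers. The part of cell composition in the members' levels was not tested.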

How the data were processed

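The authors deposited raw read counts for each gene symbol, obtained with HTSeq (intersection-nonempty mode). Per the submitters' processing notes and the study's methods, 50-base reads of RNA depleted of ribosomal RNA were filtered with Bowtie2 2.0.6 and aligned with TopHat2 2.0.7 to mm10. The annotation used for counting is not given in the sources used here. The 5 tally lines were left out.

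Genes above 1 CPM in at least 2 samples were tested in edgeR 4.0.16 (R 4.3.3) with TMM factors, genotype and experimental group as the replicate block. A likelihood-ratio test was used, with Benjamini-Hochberg adjustment over all 15438 genes and a threshold of 0.05. Test, block and threshold follow the study's methods. The library totals printed by the study include the tally lines, so its 1 CPM filter asked for more counts. The genes tested and called here are therefore not those of the study. Pairing comes from the group numbers in the labels, and the study's methods state that the mice of an experimental group were littermates. Across genes, samples of the same experimental group deviated together from their genotype's mean, with a correlation of 0.522. Ratios within a group are differences of log2 CPM with a prior count of 2, each from a single littermate pair and so untested. Since each sample was 1 mouse, n counts mice.

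Alternatives were the quasi-likelihood test, DESeq2 1.42.0, no block, RLE factors, other filters, thinning to 14833396 counts, background subtraction and leaving out each sample. The fits were run on simulated data with less spread between samples than the members had, whose fitted coefficients of variation ran from 0.30 to 0.929. The simulation had no litter effect and changed only genes with more counts than most members. It therefore does not show how the fits perform for the members. A count of 3 corresponds to 0.127 to 0.202 CPM, and intervals and this floor cover counting error only. Positions, lengths and coding sequences come from GENCODE M21 (mm10), which matched 98.1% of symbols. Promoter windows were not used, because only 10 of 54 held the outermost annotated start.

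Members named are those past the threshold, the 10 with the highest mean CPM, and the 5 with the most negative and 5 with the most positive log2 fold change. Pathway genes are named where past the threshold, together with Lmnb1, Omp, Adcy3, Gnal, Rtp1 and Rtp2. Other members and genes are named for their sequence, position, role or detection, and were picked after their values were seen. The members and gene lists were chosen with earlier results of these data known.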

Additional observations from a re-analysis of the deposited data

Results flagged for a closer look

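In mutant 1, 39.4% of the reads with a single alignment fell outside genes, above the level of both controls, and these reads were used only to set the background subtracted as an alternative. For 5 of the 22 tested members the littermate pairs moved in opposite directions, and the difference between the experimental groups was not tested, since each ratio rests on 1 mutant and 1 control. The log2 ratios in experimental groups 1 and 2 were 0.34 and -0.53 for Olfr1428, -0.03 and 0.86 for Olfr1467, 0.49 and -4.85 for Olfr1477, 2.78 and -2.30 for Olfr1490, and 0.31 and -3.38 for Olfr1491. Members below the level for testing were not considered here. Counts of Olfr1477 are uncertain because of its near copies, and its value in mutant 2 was 0.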

How the results depend on the processing

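With 2 samples per genotype, 36 of 58 members were below the filter and have no test. Members called lower numbered 1 as reported, 0 by the quasi-likelihood test, 0 with no replicate block (where 0 genes of 15438 were called lower and 6 higher) and 2 with background subtracted from mutant 1, and 0 in each fit that left out a sample. Those fits had no block and 1 residual degree of freedom per fit, and a lone sample was assumed to vary like the other genotype. The quasi-likelihood test left 494 genes lower and 117 higher in all. DESeq2 gave no adjusted p for any of the 22 members. The single call with thinned libraries was Olfr1420 and not Olfr1427. The median log2 fold change of the tested members was negative in every fit and ranged from -1.81 to -0.48 when samples were left out. Signs turned for Olfr1490 with no replicate block (-0.48), and on leaving out a sample for Olfr1490 (-1.39 to 0.16), Olfr1463 (-1.54 to 0.05), Olfr1428 (-0.64 to 0.52), Olfr1467 (-0.67 to 0.87), Olfr1495 (-0.26 to 1.38) and Olfr1496 (-1.63 to 0.08). At a limit of 10 counts, 32 members were detected in control 2 and 10 in mutant 2. Background subtraction, applied to the sections and to overlap after the data were seen, turned the ratio after the gap to -0.47 and left 1 member with both mutants above both controls, and 3 before. The cause of these shifts was not tested.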
